A study of Mus musculus with 8 samples.

Results

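Ribosomes are assembled in the nucleolus, where RNA polymerase I (Pol I) transcribes the precursor of the large ribosomal RNAs. Small nucleolar ribonucleoproteins (snoRNPs) guide chemical modification of this precursor, and separate sets of assembly factors fold, cut and export the small (40S) and large (60S) subunits. Growing and dividing cells make many ribosomes, and genes of these factors are well known targets of MYC. The 53 genes described here code for such nucleolar factors and were all found among the 55359 genes listed. They were chosen by symbol, with earlier results of these data known. They comprise 7 genes of Pol I transcription, 8 of snoRNPs, 17 of the small subunit, 16 of the large subunit and 5 whose products act at several steps.

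RNA was sequenced from mouse thymocytes sorted as CD4 and CD8 double positive (DP) cells with no to intermediate surface TCR beta, taken at 5 weeks of age. In the 4 Lck-cre samples (replicates 5 to 8), LSL-Sting1-N153S/+ was combined with Lck-cre, a Cre recombinase driven by the T-lineage promoter of Lck. The 4 control samples (replicates 1 to 4) were LSL-Sting1-N153S/+ without Cre, so that both groups carried the allele, whose stop cassette between loxP sites holds back a gain-of-function form of STING until Cre removes it. Replicates 5 and 1 came from females and the other 3 of each group from males. The sources used here do not say that each sample was a separate mouse, so p-values measure only the spread between these samples.

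As a check of the labels, Sting1 stood at 221, 85.4, 130 and 232 FPKM in Lck-cre replicates 5 to 8, against 15.3, 11.6, 13.4 and 11.9 FPKM in control replicates 1 to 4. FPKM, a level scaled to gene length and to sequencing depth, is the authors' own value, and the levels below are in this unit. Read counts are not used here, so total depth is unknown, but mean coverage per base of the 53 genes ran from 13.9 in Utp20 to 1101 in Npm1. The FPKM of all genes summed to 437778 to 457145 per Lck-cre sample, against 413835 to 437426 per control sample. The DP genes Cd4, Cd8a, Cd8b1, Rag1, Rag2, Dntt and Cd1d1 were high in every sample, with sums of 3574 to 4719 FPKM in Lck-cre and 4749 to 4999 FPKM in control samples.

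Most of the 53 genes were higher in Lck-cre DP thymocytes, by modest amounts. In limma's fit across all genes, which was adjusted for sex, 34 rose and 0 fell at a Benjamini-Hochberg adjusted p under 0.05, and 19 were not called. Among all 12337 genes tested, 15.4% rose and 10.4% fell. The 53 genes had a median log2 change of 0.32, from -0.04 in Wdr12 to 0.74 in Rrp12, while the median of all genes tested was 0.01. All 53 passed the minimum level for testing, that is 4 or more samples with an FPKM of 1 or above.

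The direction was shared more widely than the calls. The fitted change was above 0 in 51 of 53 genes, the exceptions being Wdr12 and Rrp1, and in 52.0% of all genes. Every Lck-cre sample lay above every control sample in 38 of the 53 genes, as in 17.1% of all genes, and no gene of the 53 showed the opposite. Of the 34 called genes 32 had groups that did not overlap, Polr1a and Ncl being the others.

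**Figure D1:**
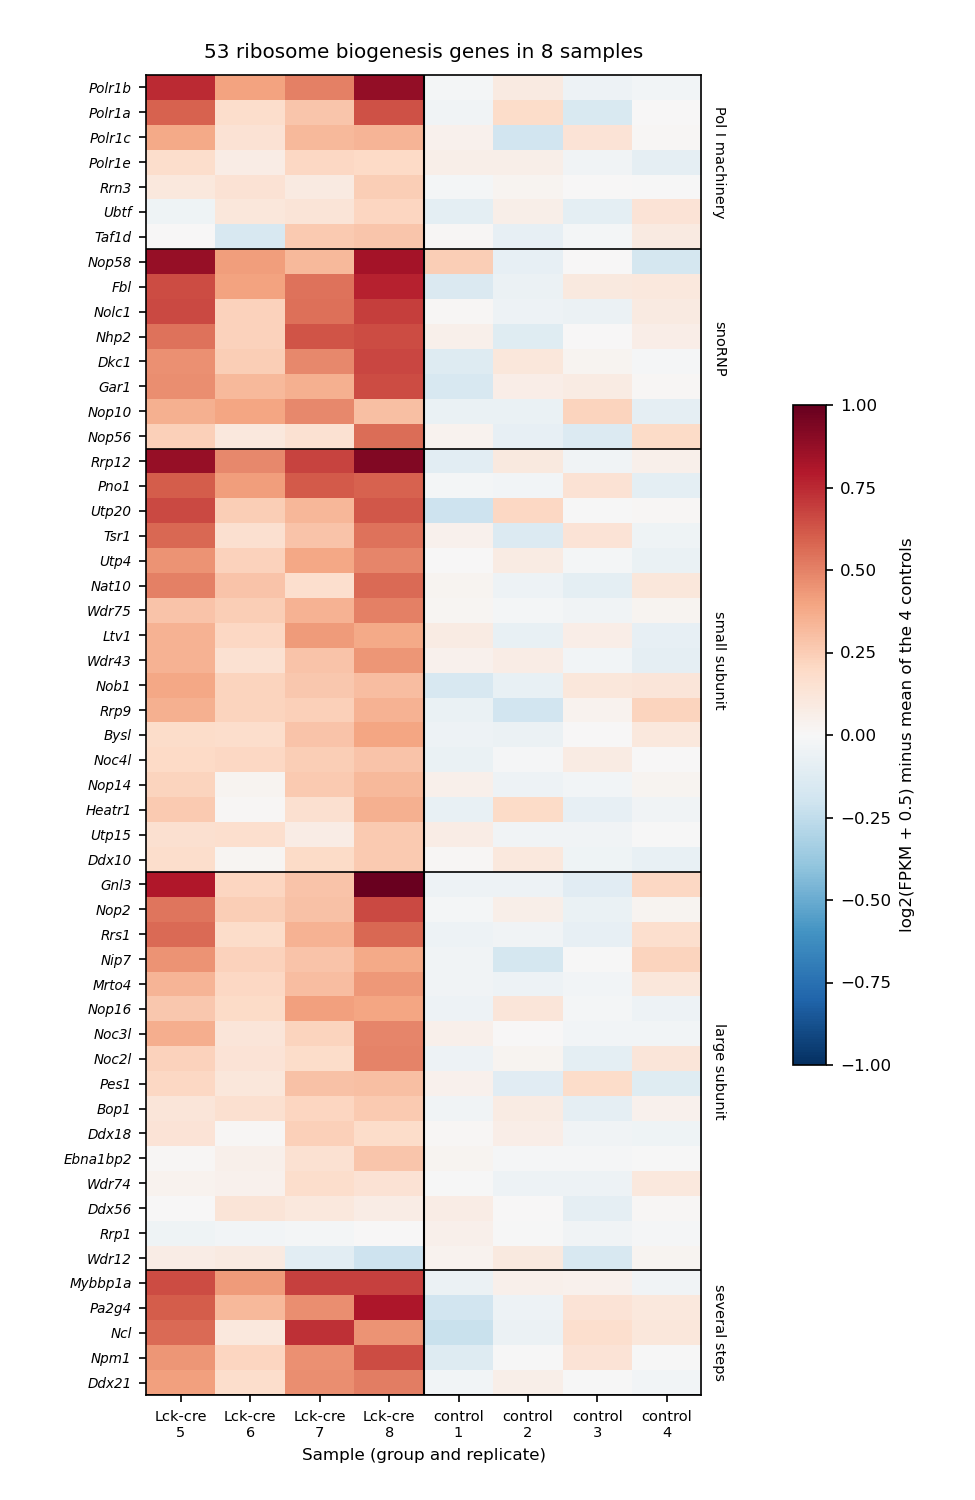
Each row is 1 of the 53 genes and each column 1 sample, Lck-cre replicates 5 to 8 left of control replicates 1 to 4. Color gives log2(FPKM + 0.5) minus the mean of the 4 controls, with red for higher and blue for lower. Red fills most rows in Lck-cre, palest in replicate 6, while Rrp1 and Wdr12 stay near 0.

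The 4 Lck-cre samples differed in the size of the shift. The median difference of the 53 genes from the control mean was 0.36, 0.18, 0.29 and 0.44 on the log2 scale in Lck-cre replicates 5 to 8, against -0.02, -0.01, -0.02 and 0.01 in control replicates 1 to 4. Replicate 8 was the highest Lck-cre sample in 35 of the 53 genes and in 28.1% of all genes tested. Replicate 6 was the lowest in 40 of the 53, and in 29.0% of all genes. Counted sample by sample, 46, 40, 48 and 50 of the 53 genes exceeded every control in replicates 5 to 8, against 32.4%, 27.7%, 36.3% and 35.2% of all genes. Replicate 6 also had the lowest Sting1 level of the Lck-cre samples, and replicate 8 the highest. The part of the Sting1 level in the size of the shift was not tested.

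The calls depended on which samples were fitted. Leaving out control replicates 1, 2, 3 or 4 gave 7, 20, 28 or 25 called genes of the 53, and leaving out Lck-cre replicates 5, 6, 7 or 8 gave 6, 39, 23 or 22. Across these fits 419 to 2215 of the 12337 genes tested rose, against 1901 with all 8 samples. Replicates 1 and 5 are the females. Where either is left out, the sex term fits the other, so the genotype change rests on the males, as in the fit of males only. In that fit 7 of the 53 were called beside 3.44% of all genes. The 6 genes called whichever sample was left out, and also under every other scaling, pseudocount and filter, were Polr1b, Nop58, Fbl, Rrp12, Pno1 and Mybbp1a. The median log2 change of the 53 stayed between 0.30 and 0.37 whichever sample was left out.

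**Figure D2:**
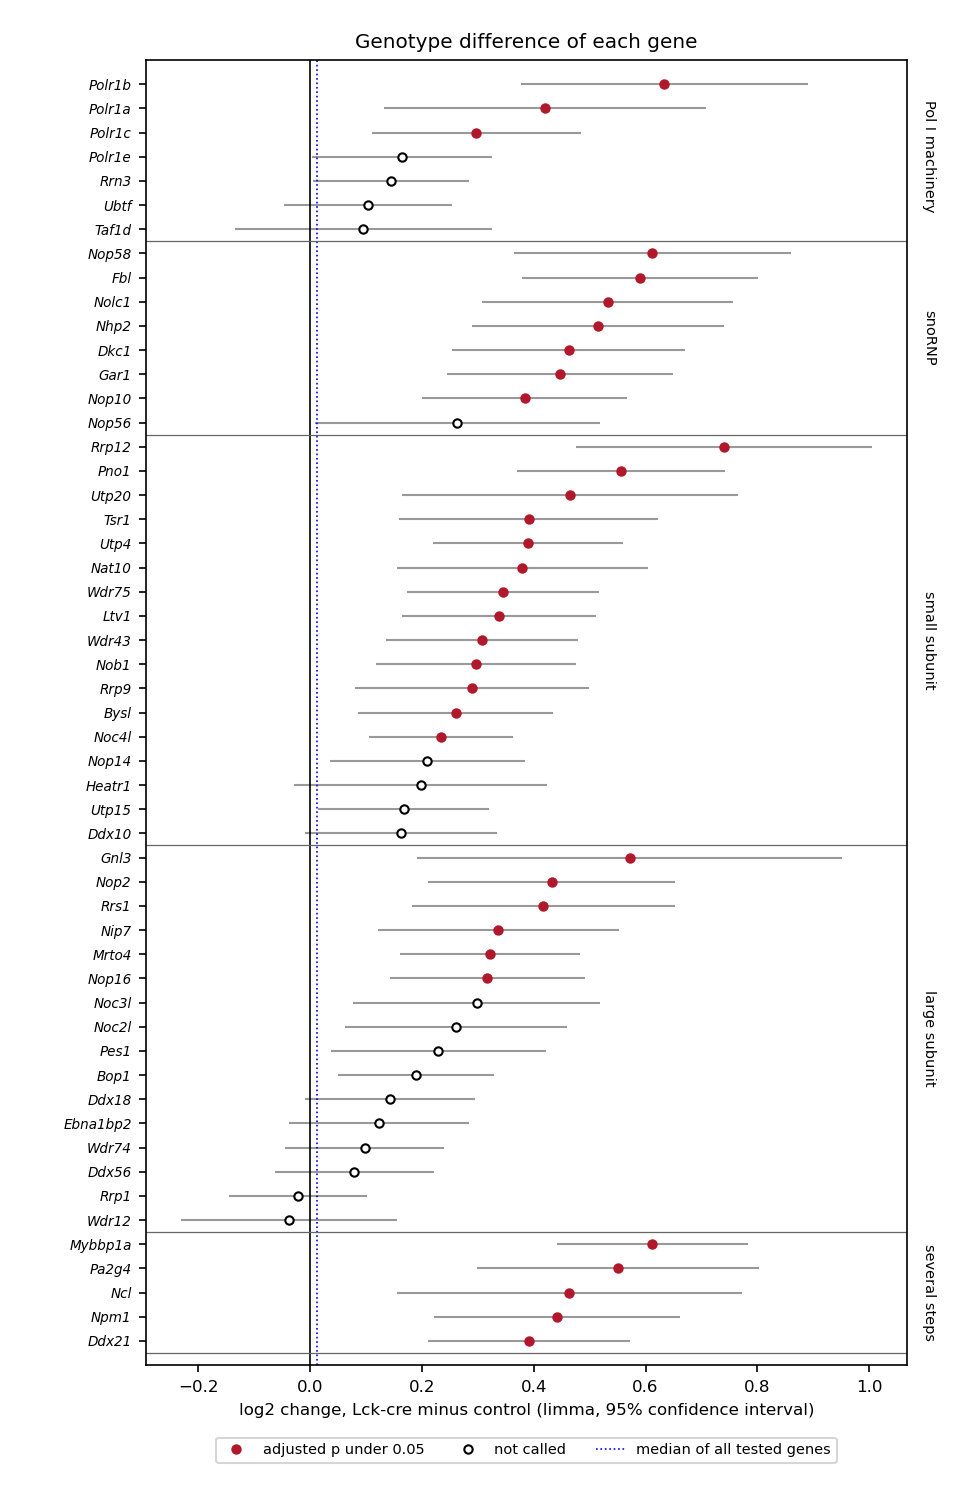
Points give the log2 change of each gene, Lck-cre minus control, and lines the 95% confidence interval of limma, with genes grouped by role. Filled points passed an adjusted p of 0.05, open points did not, and the dotted line is the median of all genes tested. Rrp12 and Polr1b lie farthest right, and the lowest 6 genes of the large subunit lie close to 0.

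Scaling moved the number of calls, and turned the prevailing direction among all genes but not among the 53. Of all called genes, 59.8% were higher in Lck-cre with FPKM values (1901 up and 1279 down), but 38.6% with the deposited TPM values (1300 up and 2067 down), which fix the sum of each sample. With TPM values 22 of the 53 genes rose and 0 fell by limma, beside 10.5% of all genes that rose, and the median log2 change was 0.25 for the 53 against -0.06 for all genes. Median-of-ratios scaling and quantile normalization called 33 and 34 of the 53 higher, beside 1812 and 1709 of all 12337 genes tested. With these scalings 57.4% and 52.9% of all called genes were higher in Lck-cre. With no filter 14 of the 53 were called, beside 2.41% of 28851 genes, and at an adjusted p under 0.01 by limma 6 were, beside 3.11% of all genes.

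Of the 7 Pol I genes, 3 rose and 0 fell by limma. These 3 code for core subunits of the polymerase. Polr1e, also a subunit gene, and the factors that recruit the polymerase to ribosomal DNA were not called. The difference between subunits and factors was not tested. Polr1b, the second largest subunit and part of the catalytic center, had 7.89, 6.09, 6.60 and 8.71 FPKM in Lck-cre, against 4.44, 4.83, 4.33 and 4.41 FPKM in control samples. The groups did not overlap, and the change was the largest of this role (1.63-fold, log2 change 0.63, SE 0.11, adjusted p = 0.00943 by limma). Polr1b is listed as ENSMUSG00000027395.16 on the plus strand of chromosome 2, from 128942915 to 128968514, in a build that the files do not name.

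Polr1a, the largest subunit, stood at 6.34, 4.62, 5.00 and 6.56 FPKM in Lck-cre, against 3.93, 4.66, 3.59 and 4.05 FPKM in control samples. Lck-cre replicate 6 fell just below control replicate 2, so the groups overlapped although the gene was called (log2 change 0.42, SE 0.13, adjusted p = 0.0398 by limma). Polr1c, a subunit shared with Pol III, had 36.1, 30.6, 34.7 and 35.2 FPKM in Lck-cre, against 28.5, 24.1, 30.3 and 27.9 FPKM in control samples (log2 change 0.30, SE 0.08, adjusted p = 0.0308). Control replicate 3 came within a small margin of Lck-cre replicate 6, the lowest of its group. With TPM values Polr1a had an adjusted p of 0.0791 and Polr1c of 0.0543 by limma, which left Polr1b as the 1 call. Without control replicates 1 to 4 in turn 1, 1, 2 and 1 of the 7 were called, and without Lck-cre replicates 5 to 8 in turn 1, 3, 1 and 1.

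Rrn3, the initiation factor TIF-IA that links growth signals to Pol I, had 14.9, 15.4, 14.8 and 16.5 FPKM in Lck-cre and 13.6, 14.1, 13.9 and 13.8 FPKM in control samples. All Lck-cre values lay above the controls, but by little (log2 change 0.15, SE 0.06, adjusted p = 0.11 by limma). Ubtf, which binds ribosomal DNA and was the most abundant of this role, had 79.3, 88.2, 89.5 and 94.9 FPKM in Lck-cre and 76.2, 85.1, 76.3 and 89.8 FPKM in control samples. Its groups overlapped, and the 95% confidence interval of its log2 change ran from -0.05 to 0.25. Taf1d, a subunit of the promoter factor SL1, had 29.9, 26.8, 35.9 and 36.3 FPKM in Lck-cre and 30.2, 28.2, 29.4 and 31.9 FPKM in control samples, with replicate 5 among the controls and replicate 6 below them all. Polr1e, another polymerase subunit, had a log2 change of 0.17 (adjusted p = 0.113 by limma) with groups that did not overlap.

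Of the 8 snoRNP genes, 7 rose and 0 fell by limma, with a median log2 change of 0.49. Box C/D snoRNPs, which carry out 2'-O-methylation, and box H/ACA snoRNPs, which make pseudouridine, both included genes that rose. Fbl, or fibrillarin, the methyltransferase of box C/D particles, had 73.7, 61.8, 68.3 and 80.0 FPKM in Lck-cre, against 42.1, 45.0, 50.1 and 50.4 FPKM in control samples. The lowest Lck-cre sample stood well above the highest control (1.51-fold, log2 change 0.59, SE 0.09, adjusted p = 0.0075 by limma). Nop58, a scaffold of the same particle, had 23.0, 16.6, 15.5 and 22.4 FPKM in Lck-cre, against 14.7, 11.6, 12.4 and 10.9 FPKM in control samples (1.56-fold, log2 change 0.61, SE 0.11, adjusted p = 0.00947). Replicates 5 and 8 were high and replicates 6 and 7 close to the highest control.

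Nop56, the partner scaffold of Nop58, was the exception. It had 102, 93.0, 96.1 and 127 FPKM in Lck-cre and 88.5, 81.5, 78.5 and 98.7 FPKM in control samples, with control replicate 4 above 2 Lck-cre samples (log2 change 0.26, adjusted p = 0.111 by limma, and an interval of 0.01 to 0.52). The file also lists 2 small RNA genes inside Nop56, Gm24451 and Snord110, as separate entries of low level. Snu13, the remaining box C/D core protein and not among the 53, rose, with 64.7, 65.1, 68.7 and 69.4 FPKM in Lck-cre, against 44.9, 49.3, 56.8 and 56.1 FPKM in control samples (adjusted p = 0.01 by limma). Its call ended without either female and in males alone, with adjusted p of up to 0.0517.

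All 4 proteins of the box H/ACA core rose, with groups that did not overlap in any of them. Dkc1, or dyskerin, the pseudouridine synthase, had 27.3, 23.6, 27.8 and 31.7 FPKM in Lck-cre, against 18.1, 21.4, 20.2 and 19.6 FPKM in control samples (1.39-fold, log2 change 0.46, SE 0.09, adjusted p = 0.0119 by limma). Its structural partners Nhp2, Gar1 and Nop10 had log2 changes of 0.51, 0.45 and 0.38. Nolc1, a chaperone of snoRNPs also called Nopp140, rose 1.46-fold to 41.1 ± 5.71 FPKM in Lck-cre, against 28.0 ± 1.40 FPKM in control samples (SD, n = 4 each). With TPM values all 7 stayed called. Without control replicate 1 or Lck-cre replicate 5 only 3 and 2 of the 8 passed, and without any other single sample 7 did.

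**Figure D3:**
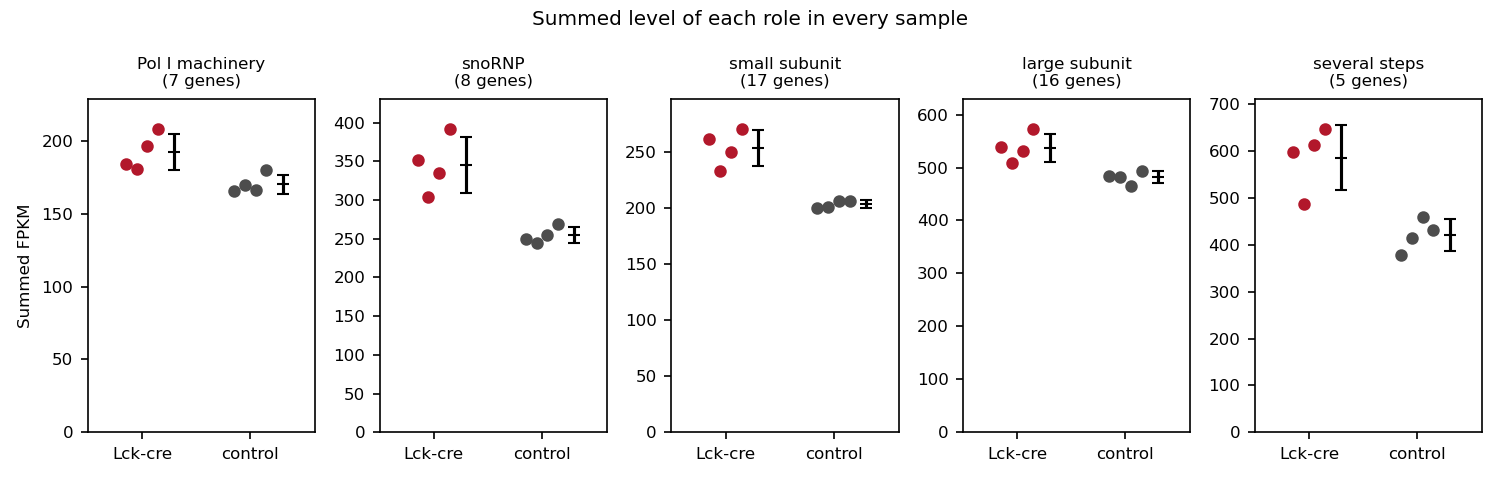
Each panel sums FPKM over the genes of 1 role in every sample, Lck-cre left of control, with bars for the mean and SD of 4 samples. Means were 192 against 170 for Pol I, 346 against 254 for snoRNPs, 253 against 203 for the small subunit, 538 against 481 for the large subunit and 585 against 421 for genes of several steps, Lck-cre first.

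Among the 17 genes of the small subunit, 13 rose and 0 fell by limma, with a median log2 change of 0.31. Rrp12, which takes part in late maturation and export of pre-40S particles as known from yeast, had the largest change of all 53 genes. It stood at 5.37, 3.97, 4.62 and 5.59 FPKM in Lck-cre, against 2.48, 2.92, 2.62 and 2.81 FPKM in control samples (1.81-fold, log2 change 0.74, SE 0.12, adjusted p = 0.00754 by limma). The groups were far apart, although Rrp12 is among the least abundant of the 53. It is listed as ENSMUSG00000035049.5 at positions 41851290 to 41884612 of chromosome 19, minus strand.

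Pno1, an RNA-binding partner of the nuclease Nob1, had 12.3, 10.7, 12.4 and 12.1 FPKM in Lck-cre, against 7.80, 7.74, 8.80 and 7.34 FPKM in control samples (log2 change 0.56, SE 0.08, adjusted p = 0.0075 by limma). Replicate 6 was lower than the other 3 Lck-cre samples, which lay together. In the files' coordinates the whole of Pno1 lies within Wdr92, which is on the opposite strand at a mean of 12.5 FPKM, and the sources used here do not say whether counting used strand. Nob1, which makes the final cut at the 3' end of 18S rRNA and was the most abundant of this role, had 39.1, 34.9, 36.1 and 37.1 FPKM in Lck-cre, against 26.7, 28.3, 32.2 and 32.5 FPKM in control samples (log2 change 0.30, SE 0.08, adjusted p = 0.0269).

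The other late 40S factors also rose, so that all 5 of this set were called. Ltv1 and Tsr1 had log2 changes of 0.34 and 0.39, and Bysl, or bystin, of 0.26. Part of Bysl overlaps Ccnd3 on the opposite strand, a cyclin gene at a mean of 841 FPKM against 8.78 FPKM for Bysl, and 26.5% of the span of Tsr1 overlaps Srr. With TPM values 3 of the 5 stayed called, the others being Bysl (adjusted p = 0.0954 by limma) and Nob1 (0.0676).

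The t-UTP genes, whose products join the earliest precursor and are also needed for its transcription, divided. Heatr1, the largest of them, had 10.9, 9.09, 10.1 and 11.7 FPKM in Lck-cre and 8.53, 10.4, 8.49 and 8.77 FPKM in control samples. Control replicate 2 lay above 2 Lck-cre samples, and Heatr1 had the largest p of this role (log2 change 0.20, adjusted p = 0.166 by limma, and an interval of -0.03 to 0.42). Utp4, Wdr75 and Wdr43 rose, with log2 changes of 0.39, 0.34 and 0.31. Utp15 and Nol11 had 0.17 and 0.16 (adjusted p of 0.0939 and 0.0911 by limma). Wdr43 lost its call with TPM values (adjusted p = 0.056).

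The rest of the small subunit genes followed the same pattern. Utp20, a large scaffold, Nat10, an acetyltransferase of 18S rRNA, Rrp9, a protein of the U3 snoRNP, and Noc4l had log2 changes of 0.47, 0.38, 0.29 and 0.23 and were called. Nop14, the partner of Noc4l, and the helicase Ddx10 were not, at 0.21 and 0.16 (adjusted p of 0.0721 and 0.139 by limma). With TPM values 6 of the 17 were called. Leaving out control replicates 1 to 4 in turn gave 2, 6, 9 and 8 calls, and leaving out Lck-cre replicates 5 to 8 gave 2, 14, 7 and 7.

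The large subunit was the most mixed, with 6 of 16 genes higher and 0 lower by limma and a median log2 change of 0.25. Nop2, a methyltransferase of 28S rRNA, had 20.8, 16.9, 17.5 and 22.6 FPKM in Lck-cre, against 13.9, 14.8, 13.5 and 14.4 FPKM in control samples (1.37-fold, log2 change 0.43, SE 0.10, adjusted p = 0.0162 by limma). Replicates 5 and 8 were again above replicates 6 and 7. Mrto4, a relative of the ribosomal stalk protein P0, had 29.9, 27.1, 29.2 and 31.8 FPKM in Lck-cre, against 22.9, 22.6, 23.0 and 25.4 FPKM in control samples (log2 change 0.32, SE 0.07, adjusted p = 0.0153). The groups did not overlap for either gene.

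Gnl3, or nucleostemin, a GTPase of proliferating cells, had the largest change of this role and the widest spread, at 37.3, 24.7, 26.0 and 42.5 FPKM in Lck-cre and 20.5, 20.5, 19.6 and 24.6 FPKM in control samples. Lck-cre replicate 6 barely exceeded control replicate 4, and the call (log2 change 0.57, SE 0.17, adjusted p = 0.0364 by limma) was lost with TPM values (0.0598). Rrs1, Nip7 and Nop16 made up the 6 called genes, with log2 changes of 0.42, 0.34 and 0.32. Nip7 also lost its call with TPM values (adjusted p = 0.0693).

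None of the 3 genes of the PeBoW complex, which processes the precursor of 28S and 5.8S rRNA, passed limma's threshold. Pes1, or pescadillo, had 28.6, 26.8, 30.4 and 30.5 FPKM in Lck-cre and 25.5, 22.9, 28.2 and 22.7 FPKM in control samples, with 1 control inside the Lck-cre range (log2 change 0.23, adjusted p = 0.0746 by limma). Bop1 had 29.2, 30.0, 31.3 and 32.3 FPKM in Lck-cre and 26.2, 28.5, 25.1 and 27.7 FPKM in control samples, without overlap and just short of the threshold (log2 change 0.19, SE 0.06, adjusted p = 0.0512). Wdr12 had 27.0, 27.4, 23.8 and 22.2 FPKM in Lck-cre and 26.4, 27.5, 22.9 and 26.2 FPKM in control samples. Its groups overlapped fully, and its log2 change of -0.04 had a 95% confidence interval of -0.23 to 0.16.

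Pes1 passed without control replicate 3 (adjusted p = 0.0306 by limma), and Bop1 without Lck-cre replicate 6 (0.0479) or with no sex term (0.0437). Wdr12 passed in no fit, its lowest adjusted p being 0.398. Rrp1, by far the most abundant large subunit gene of the list, was the other one without a positive change. It had 156, 158, 158 and 161 FPKM in Lck-cre and 166, 160, 156 and 159 FPKM in control samples, and the 95% confidence interval of its log2 change was narrow, at -0.14 to 0.10.

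The remaining large subunit genes were not called. Noc3l and Noc2l, which form a complex with each other, were near the threshold, at log2 changes of 0.30 and 0.26 (adjusted p of 0.0523 and 0.0559 by limma) and with groups that did not overlap. The helicases Ddx18 and Ddx56, Ebna1bp2 and Wdr74 had log2 changes of 0.14, 0.08, 0.12 and 0.10, and their groups overlapped. Leaving out control replicates 1 to 4 in turn gave 0, 2, 5 and 5 calls among the 16, and leaving out Lck-cre replicates 5 to 8 gave 0, 10, 4 and 3.

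All 5 genes whose products act at several steps rose, with a median log2 change of 0.46. Mybbp1a, a partner of nucleolar and transcription factors that takes part in rRNA processing, had the smallest adjusted p of the 53. It stood at 36.3, 30.8, 37.0 and 37.0 FPKM in Lck-cre, against 21.9, 23.7, 23.5 and 22.3 FPKM in control samples (1.54-fold, log2 change 0.61, SE 0.08, adjusted p = 0.00619 by limma). The controls lay close together, and Lck-cre replicate 6 was lower than the other 3. Mybbp1a is listed as ENSMUSG00000040463.17 on the plus strand of chromosome 11, from 72332181 to 72342594.

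Npm1, or nucleophosmin, an abundant nucleolar chaperone, was the highest of the 53 genes in every sample. It had 293, 250, 296 and 338 FPKM in Lck-cre, against 197, 215, 236 and 215 FPKM in control samples (1.36-fold, log2 change 0.44, SE 0.10, adjusted p = 0.0153 by limma). Ncl, or nucleolin, which binds pre-rRNA, had 148, 108, 166 and 136 FPKM in Lck-cre and 85.6, 95.8, 112 and 108 FPKM in control samples. Lck-cre replicate 6 lay among the controls, and the call (log2 change 0.46, SE 0.14, adjusted p = 0.0364) was lost with TPM values (0.0549).

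Pa2g4, also known as EBP1, which binds ribosomes and pre-ribosomes, had 82.7, 67.8, 75.0 and 95.2 FPKM in Lck-cre, against 47.4, 52.2, 59.6 and 58.1 FPKM in control samples (1.48-fold, log2 change 0.55, SE 0.11, adjusted p = 0.0123 by limma). The helicase Ddx21, which acts at Pol I and snoRNAs, had a log2 change of 0.39. Without control replicate 1 or Lck-cre replicate 5 only Mybbp1a of the 5 passed, and leaving out control replicate 2 or 4, or Lck-cre 7 or 8, gave 4 calls.

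**Figure D4:**
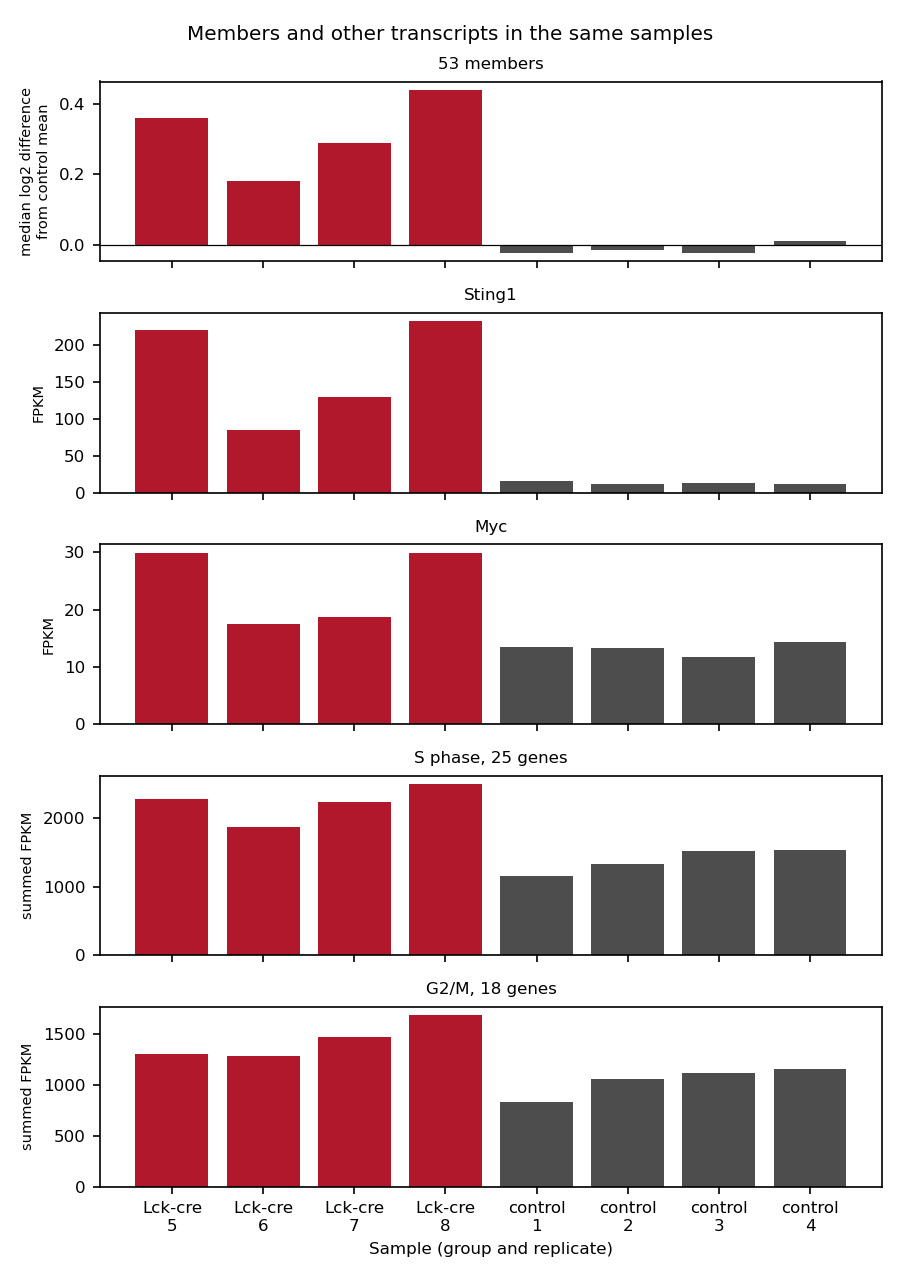
From top to bottom, the panels show per sample the median log2 difference of the 53 genes from the control mean, the FPKM of Sting1 and Myc, and the summed FPKM of 25 S phase and 18 G2/M genes. Lck-cre replicates 5 to 8 stand left of control replicates 1 to 4, and Lck-cre replicate 8 is highest and replicate 6 lowest of its group in each panel but that of Myc, where replicates 5 and 8 are level.

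Other transcripts moved with these genes in the same samples. All 25 S phase genes tested rose by limma, and their summed FPKM was 2272, 1867, 2240 and 2496 in Lck-cre, against 1159, 1335, 1525 and 1528 in control samples. In males alone 17 of the 25 were called, and with no filter 16. Of 18 G2/M genes 15 rose, with sums of 1301, 1279, 1463 and 1679 FPKM in Lck-cre, against 827, 1054, 1117 and 1149 FPKM in control samples, and 6 were called in males alone and 7 with no filter. Within the controls the S phase sum was lowest in replicate 1, the female. The summed FPKM of the 53 genes was also lowest there, at 1478, 1512, 1551 and 1578 in control replicates 1 to 4. Their median log2 difference from the control mean lay between -0.02 and 0.01 in the controls. In these bulk samples a larger share of cycling cells and more RNA per cell cannot be told apart, and the part of cell cycle in the ribosome biogenesis result was not tested.

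Myc had 29.9, 17.5, 18.7 and 29.8 FPKM in Lck-cre, against 13.4, 13.3, 11.8 and 14.3 FPKM in control samples (log2 change 0.80, adjusted p = 0.0129 by limma). The call of Myc ended with no filter, in males alone and without either female, with adjusted p of up to 0.064. Replicates 5 and 8 were high and replicates 6 and 7 closer to the controls. Replicate 7, with the lower Myc, had 48 of the 53 genes above every control, against 46 in replicate 5. Of all genes tested, 36.3% and 32.4% were above every control in replicates 7 and 5. The median log2 difference of the 53 genes from the control mean was 0.29 in replicate 7 and 0.36 in replicate 5. Max, the partner of MYC, had an adjusted p of 0.406. Of 10 tested genes of the MYC network 2 rose (20.0%) and 2 fell by limma, while 15.4% of all genes rose and 10.4% fell. Mxd3, an antagonist of MYC, was the other that rose (log2 change 0.38, adjusted p = 0.00988), and the antagonists Mxd1 and Mxd4 fell (log2 changes of -0.25 and -0.33). All 3 lost their call in males alone and without either female, among other settings for Mxd1 and Mxd4. Mxd4 stood at 129, 134, 119 and 101 FPKM in Lck-cre against 158, 154, 150 and 141 FPKM in control samples (adjusted p = 0.0273, and up to 0.087 under the alternatives). The part of Myc in the result was not tested.

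Markers of other cells were mostly low, but some differed between groups. Of the 7 DP genes 4 were called lower in Lck-cre, and 0 of 7 in males alone by limma. Summed over 6 markers of double negative and immature thymocytes, levels were 77.7 to 123 FPKM in Lck-cre and 68.1 to 74.7 FPKM in control samples. Ptcra was the 1 call of 4 tested, and it was lost in males alone. The 4 gamma delta T cell markers summed to 50.8 to 94.9 FPKM in Lck-cre and 29.8 to 31.2 FPKM in control samples. All 3 that were tested rose, also in males alone. Summed over 7 myeloid and dendritic markers, levels were 6.30 to 12.6 FPKM in Lck-cre and 3.88 to 4.75 FPKM in control samples, with Csf1r and Adgre1 at or near 0. Of 3 tested myeloid and dendritic genes 2 rose by limma, and also in males alone, the antigen presentation genes Cd74 (log2 change 1.65, adjusted p = 0.00817) and H2-Aa (1.17, adjusted p = 0.00801). The 5 B cell markers summed to 7.84 to 15.5 FPKM in Lck-cre and 12.4 to 16.9 FPKM in control samples, nearly all of it Cd79b, while Ms4a1 and Pax5 were at or near 0. Sums over 7 mature T cell markers were 61.2 to 72.7 FPKM in Lck-cre and 71.5 to 75.9 FPKM in control samples. Of these markers 1 of 3 tested genes was called, Klf2, which was higher in Lck-cre but lost its call in males alone. Epithelial and stromal markers summed to at most 5.28 FPKM in Lck-cre and 5.68 FPKM in control samples, and erythroid markers to at most 0.262 FPKM in any sample, with Pdgfra at 0 in all 8 samples. The part of these cells in the result was not tested.

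Promoter sequences were examined because many of these genes moved together and genes of this class are known to carry E-boxes, the CACGTG motif bound by MYC and related factors. RefSeq promoters of the GRCm38.p6 assembly, which run from 250 bases before to 50 bases after the start site, were found for 48 of the 53 genes. The others were Npm1, Bop1, Fbl, Rrp12 and Rrs1. CACGTG, which reads the same on both strands, was found in 10 of the 48 genes (20.8%), in 12.4% of the 8394 tested genes with a promoter and in 8.09% of all 27025 genes of that table. The variant CACGCG, searched on both strands, was found in 18 of the 48 (37.5%), against 21.0% of tested genes and 10.5% of all genes, and CCAAT in 16 of the 48 (33.3%), against 43.8% of tested genes and 41.1% of all genes. No CACGTG match overlapped a CACGCG match, and 2 of the 48 genes, Mybbp1a and Pes1, held both. Of 11 CACGTG matches in the 10 genes, 8 began after the start site, against 13.7% of matches in tested genes.

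The sequences below show the base context of CACGTG (capitals) in the 9 genes where 1 match was found, with up to 12 bases on either side, cut at the end of the promoter where it is near. They are given 5' to 3' on the strand of the gene, from genome positions in GRCm38.p6. In 8 of these genes the match began 2 to 40 bases after the start site, and in Nop2 60 bases before it.
Mybbp1a, plus strand of chr11:72441355-72441376: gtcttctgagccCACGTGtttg
Pno1, minus strand of chr11:17211540-17211564: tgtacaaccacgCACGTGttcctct
Utp20, minus strand of chr10:88826765-88826789: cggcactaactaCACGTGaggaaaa
Ltv1, minus strand of chr10:13193092-13193121: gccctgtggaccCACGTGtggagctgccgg
Tsr1, plus strand of chr11:74898092-74898121: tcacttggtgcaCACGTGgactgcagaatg
Wdr43, plus strand of chr17:71616220-71616249: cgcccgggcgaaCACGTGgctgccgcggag
Utp4, plus strand of chr8:106893643-106893672: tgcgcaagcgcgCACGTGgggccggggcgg
Pes1, plus strand of chr11:3963965-3963994: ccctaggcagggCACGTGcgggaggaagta
Nop2, plus strand of chr6:125131811-125131840: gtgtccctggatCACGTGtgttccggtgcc

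Rrn3 held the motif at a pair of positions, 215 and 48 bases before the start site, and was not called. It is shown with the 250 bases before that site, which hold both matches. The capitals mark the matches.
Rrn3, plus strand of chr16:13780449-13780698: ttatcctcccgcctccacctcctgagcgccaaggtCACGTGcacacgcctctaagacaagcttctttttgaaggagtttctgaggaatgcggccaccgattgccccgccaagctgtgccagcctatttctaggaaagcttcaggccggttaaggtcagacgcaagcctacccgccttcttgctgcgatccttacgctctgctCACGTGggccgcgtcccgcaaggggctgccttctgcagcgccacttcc

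Of the 10 genes with CACGTG 8 rose, the others being Rrn3 and Pes1, while 15.4% of all genes tested rose. The log2 changes of the 10 had a median of 0.39 and a range of 0.15 to 0.61. Of the 38 genes with a promoter but without CACGTG 22 rose, with a median of 0.30 and a range of -0.04 to 0.63. Polr1b, with the largest change of these 38, and Wdr12, with the smallest, held none of the 3 motifs. The difference between genes with and without CACGTG was not tested. The matches are descriptions of these windows, and binding was not measured.

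Other genes of the pathway were examined too. Of 114 further genes listed for Pol I, the subunits and the RNA exosome, 113 were found and 112 tested, of which 29 rose and 1 fell by limma, with a median log2 change of 0.15. The share that rose was 25.9% of the 112, beside 15.4% of all genes. The difference between this list and the 53 genes was not tested. Of these 30 calls 1, Polr2e, held under every alternative. With TPM values 15 of the 112 rose and 3 fell, beside 10.5% of all genes that rose, and in males alone 1 rose, beside 3.44%. Leaving out control replicates 1 to 4 in turn gave 1, 9, 26 and 15 genes higher, and leaving out Lck-cre replicates 5 to 8 gave 1, 36, 16 and 16.

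Among 14 further Pol I genes 3 rose (21.4%, beside 15.4% of all genes) and 1 fell. Polr2e and Polr2f, subunits shared by the nuclear polymerases, rose with log2 changes of 0.33 and 0.40. Taf1a, a subunit of the promoter factor SL1 like Taf1d, was lower, at 9.37, 11.4, 9.70 and 9.75 FPKM in Lck-cre against 12.7, 12.4, 11.2 and 12.7 FPKM in control samples (log2 change -0.28, SE 0.08, adjusted p = 0.0381 by limma). Lck-cre replicate 6 overlapped control replicate 3, and the call ended without either female, in males alone, with no filter, and on leaving out control replicate 2 or 4, or Lck-cre 7 or 8, with adjusted p of up to 0.147. Taf1b of the same factor had the largest p of the 14, with a log2 change of -0.02.

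Among 44 further small subunit genes 11 rose and 0 fell by limma, of which Snu13 and Nop9 (log2 change 0.28) had the smallest p and Rcl1 the largest change (0.44), while Rrp36 had the largest p (0.981 after adjustment by limma). Of 43 tested genes of the large subunit 10 rose (23.3%) and 0 fell by limma. Rrp15 had 6.85, 6.24, 7.41 and 8.36 FPKM in Lck-cre, against 3.52, 4.79, 5.56 and 4.07 FPKM in control samples, without overlap (log2 change 0.64, SE 0.12, adjusted p = 0.0109), and Rsl1d1 had a log2 change of 0.34. Rbm28 had 24.5, 24.0, 22.7 and 30.8 FPKM in Lck-cre and 26.8, 25.9, 21.3 and 27.5 FPKM in control samples, with full overlap. The RNA exosome trims rRNA precursors, and 5 of its 11 tested genes (45.5%) rose and 0 fell by limma. Log2 changes were 0.39 for Exosc9 and 0.36 for Exosc2, while Exosc4 had an adjusted p of 0.983 by limma. In males alone 0 genes were called in the further small subunit, large subunit or exosome lists.

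**Figure D5:**
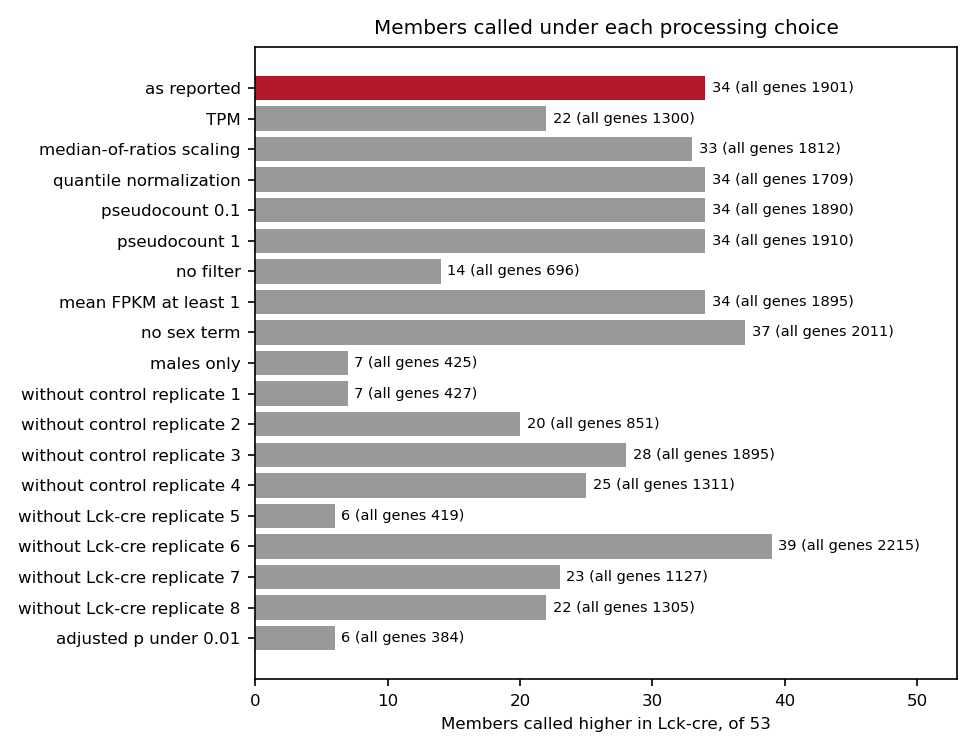
Bars give the number of the 53 genes called higher in Lck-cre under each processing choice, with the number among all genes tested in parentheses. The reported fit called 34, TPM values 22, no filter 14, and fits without control replicate 1 or Lck-cre replicate 5 called 7 and 6.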

How the data were processed

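Total RNA of 8 samples was sequenced, and HISAT and Bowtie2 are named in the submitters' processing notes. Their versions and roles, the quantifier, genome build, annotation and strandedness are not stated in the labels or headers. The deposited columns are, per the file headers, FPKM values, TPM values (1000000 in sum per sample) and a coverage signal, the mean read coverage per base. Values of entries sharing a gene ID were summed. Total depth is unknown without counts, and 1 FPKM stood most often for a coverage of 7.53 to 7.89.

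The 12337 genes that reached an FPKM of 1 in 4 or more samples entered a limma 3.58.1 fit (R 4.3.3) of log2(FPKM + 0.5), a scale that understates changes of low genes. The model held genotype and sex, and the variance a trend (prior degrees of freedom 4.17). Tests were two-sided and adjusted by Benjamini-Hochberg over all tested genes. Folds are ratios of mean FPKM, SDs are over samples, and SEs and intervals are limma's. Python 3.11.15, pandas 2.3.3 and NumPy 2.4.6 made the summaries. The fit was tested on simulated data.

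Members, roles and lists were chosen with earlier results of these data known. Values in every sample are given by rule for 24 members: per role the 2 smallest p, the largest p and the highest mean, and 15 genes whatever their result. Of each further list the rule took up to 2 genes higher and 2 lower with the smallest p and the 1 with the largest p, and of these Snu13, Taf1a, Rrp15 and Rbm28, with Gnl3 of the members and Myc and Mxd4 beside them, are given by sample after their values were seen. Rcl1, Nol11, Mxd1, Mxd3, Cd74 and H2-Aa were also named after their values were seen. Polr1g was matched as Cd3eap, and Nop15 was not matched. The DP and B cell marker lists each leave out 1 gene that is not reported here. Alternatives were TPM values, median-of-ratios scaling, quantile normalization, pseudocounts of 0.1 and 1, no filter, each sample left out, a fit of males only, one with no sex term, a filter on mean FPKM (1 or above) and an adjusted p under 0.01.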

Additional observations from a re-analysis of the deposited data

Results flagged for a closer look

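In 106 groups of 4 samples (53 genes in 2 groups), 6 held 1 sample far from the other 3 by Dixon's criterion, which chance does in about 1 group in 20. Lck-cre replicate 6 was the low sample in Pno1 (10.7 FPKM) and Mybbp1a (30.8 FPKM). Among controls the high samples were replicate 3 in Nop10 (37.6 FPKM), replicate 2 in Heatr1 (10.4 FPKM), and replicate 4 in Rrs1 (13.1 FPKM) and Mrto4 (25.4 FPKM).

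In 2 genes the female Lck-cre sample lay below the female control while every male Lck-cre sample lay above every male control, by -0.081 FPKM in Ebna1bp2 and by -1.15 FPKM in Ddx56. This difference rests on 1 female per group. In a limma fit with a genotype by sex term 0 of the 53 genes passed, and 0 had an unadjusted p under 0.05 (smallest adjusted p 0.9999).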

How the results depend on the processing

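The 53 genes had 34 calls higher and 0 lower, and no alternative called any of them lower. Counts that moved by over 1.5 times follow. The number higher was 22 with TPM values, 14 with no filter, 7 in males only and 6 at an adjusted p under 0.01, and 6 to 39 with 1 sample left out. For Pol I genes (3) it was 1 in each of these 4 settings and 1 to 3 with 1 sample left out. For snoRNP genes (7) it was 4 with no filter, 3 in males only and 2 at 0.01, and 2 to 7. For the small subunit (13) it was 6 with TPM values, 6 with no filter, 2 in males only and 2 at 0.01, and 2 to 14. For the large subunit (6) it was 1 with no filter, 0 in males only and 0 at 0.01, and 0 to 10. For genes of several steps (5) it was 2 with no filter, 1 in males only and 1 at 0.01, and 1 to 5. Further pathway genes higher (29) were 15 with TPM values, 6 with no filter, 1 in males only and 0 at 0.01, and 1 to 36, and those lower (1) were 3 with TPM values, 2 with median-of-ratios scaling, quantile normalization or no sex term, and 0 with no filter, in males only or at 0.01, and 0 to 2. Of all genes, those higher (1901) were 696 with no filter, 425 in males only and 384 at 0.01, and 419 to 2215, and those lower (1279) were 2067 with TPM values, 360, 227 and 128, and 226 to 1674. With no filter 28851 genes were tested, and in males only 6 samples were used. Without replicate 1 or 5 the sex term fits the other female, so the genotype change again rests on the males. Otherwise the cause was not tested. The median log2 change of the 53 moved by less than the spread of replicates in every setting, to 0.25 with TPM values and to 0.30 to 0.37 with 1 sample left out. No paired analysis was possible because the groups share no replicate numbers.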
